A study of Mus musculus with 9 samples.

Results

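The endoplasmic reticulum (ER) stress and folding genes were followed by RNAseq in FVB MOE cells, a clonal mouse oviductal epithelial cell line of secretory character. The set holds 41 genes chosen by name for their roles in folding, degradation and stress signaling in the ER, and each of them had 1 row among the 23332 gene rows. It was chosen with earlier results of these data known. The shares of called members given below therefore describe the set and do not test for an excess. All 9 samples were starved of hormone for 48 h in stripped medium. The cells then received solvent (0.1% DMSO), 1 nM 17β-estradiol (E2) or 100 nM 4-hydroxytamoxifen (4OHT), an estrogen receptor modulator, for 24 h, with 3 samples in each group. The routine growth medium, used before starvation, contained estradiol, insulin and growth factor. The line is 1 clone, and the labels number the samples of each group 1 to 3. Nothing in the labels says that these came from separate cultures, so the p-values measure the spread between these samples, which may be technical.

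The ER folds secreted and membrane proteins. When unfolded protein builds up there, 3 sensors in its membrane signal to the nucleus: IRE1α (*Ern1*), which splices the mRNA of *Xbp1*, PERK (*Eif2ak3*), which slows translation and favors synthesis of ATF4, and ATF6, which is cut free and enters the nucleus. Their target genes encode chaperones such as BiP (*Hspa5*), disulfide isomerases, and the machinery that returns misfolded protein to the cytosol for degradation. ATF4 and its targets also answer to amino acid shortage. Secretory epithelia of the oviduct carry a heavy load of glycoprotein export.

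The ER stress element, CCAAT and CCACG separated by 9 bases, is the site through which ATF6 and XBP1 are known to act on chaperone genes. It was searched on both strands from 250 bases before to 50 bases after the start of 32851 RefSeq promoters (GRCm38.p6). A promoter was matched for 36 of the 41 genes, and not for *Hyou1*, *Derl1*, *Atf6*, *Creb3l1* and *Manf*. The element was present in 10 of these 36, counted by gene, and in 0.119% of all promoters, counted by promoter entry. The genes were chosen for their ER roles, so these shares describe the set and do not test for an excess. The same holds for the motifs below. The matches are shown because all 10 genes encode folding or degradation proteins, while the matched promoters of sensors (*Ern1*, *Eif2ak3*) and factors held none. Capitals mark the fixed bases, each match is written in the direction of the element, and *Hsp90b1* held a pair of them.
Hspa5, chr2:34772025-34772043, plus strand: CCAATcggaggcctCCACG
Hsp90b1, chr10:86705638-86705656, minus strand: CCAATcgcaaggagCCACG
Hsp90b1, chr10:86705533-86705551, plus strand: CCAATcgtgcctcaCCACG
Calr, chr8:84847075-84847093, plus strand: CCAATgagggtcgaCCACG
Canx, chr11:50325800-50325818, minus strand: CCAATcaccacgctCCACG
Dnajc3, chr14:118937827-118937845, plus strand: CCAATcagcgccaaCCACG
Pdia6, chr12:17266491-17266509, plus strand: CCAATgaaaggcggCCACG
Ero1lb, chr13:12565682-12565700, minus strand: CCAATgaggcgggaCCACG
Creld2, chr15:88819520-88819538, minus strand: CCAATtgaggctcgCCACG
Syvn1, chr19:6046532-6046550, plus strand: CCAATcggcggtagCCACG
Derl3, chr10:75893242-75893260, minus strand: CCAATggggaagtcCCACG

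The 250 bases before the start are given for *Hspa5*, the textbook target of the element, for *Pdia6*, and for *Ern1* and *Xbp1*, which had the largest E2 responses among the sensors and factors. Capitals again mark matches. *Pdia6* also held the core of the XBP1 site, GACGTGG, which was found in 3 of the 36 promoters (*Creb3*, *Pdia6*, *Ssr1*) and in 2.423% of all promoters. In *Pdia6* it did not overlap the ER stress element. No match to either motif lay in the windows of *Ern1* and *Xbp1*.
Hspa5, chr2:34771840-34772089, plus strand: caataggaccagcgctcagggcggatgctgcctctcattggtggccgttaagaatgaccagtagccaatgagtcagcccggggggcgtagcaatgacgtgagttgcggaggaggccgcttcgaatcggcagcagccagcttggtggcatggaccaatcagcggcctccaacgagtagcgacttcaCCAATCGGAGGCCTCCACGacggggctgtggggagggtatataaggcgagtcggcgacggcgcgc
Pdia6, chr12:17266339-17266588, plus strand: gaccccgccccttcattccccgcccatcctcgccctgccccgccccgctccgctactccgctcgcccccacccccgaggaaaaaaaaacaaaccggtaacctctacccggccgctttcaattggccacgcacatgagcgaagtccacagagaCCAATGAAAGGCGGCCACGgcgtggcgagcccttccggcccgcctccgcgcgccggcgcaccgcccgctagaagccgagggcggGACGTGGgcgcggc
Ern1, chr11:106487797-106488046, minus strand: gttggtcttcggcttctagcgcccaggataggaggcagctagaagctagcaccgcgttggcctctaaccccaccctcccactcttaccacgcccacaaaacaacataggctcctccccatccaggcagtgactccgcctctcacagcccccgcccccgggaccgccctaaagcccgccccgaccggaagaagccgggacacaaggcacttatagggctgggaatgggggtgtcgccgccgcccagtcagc
Xbp1, chr11:5520391-5520640, plus strand: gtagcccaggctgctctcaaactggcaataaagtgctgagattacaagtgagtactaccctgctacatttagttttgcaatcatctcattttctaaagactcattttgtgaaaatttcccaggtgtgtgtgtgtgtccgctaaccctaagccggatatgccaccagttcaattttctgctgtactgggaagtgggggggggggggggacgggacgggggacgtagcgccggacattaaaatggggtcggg

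An ATF4 element, TTGCATCA, was found in 3 of the 36 promoters (*Chac1*, *Herpud1*, *Nupr1*) and in 0.895% of all promoters. The palindromic estrogen response element GGTCANNNTGACC was found in 0 of the 36 and in 0.07% of all promoters. These windows are short, and a missing match says only that these letters are not there.

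Levels were in FPKM, a unit that divides fragments by transcript length and library size, so that genes can be compared per length, and the read depth behind each value is unknown from them. The sum of FPKM ranged from 522517 to 588640 per sample. Keratin genes *Krt7*, *Krt8* and *Krt18* lay between 222 and 927 FPKM and *Pax8*, a secretory cell marker, between 105 and 150 FPKM, while *Epcam* and *Cdh1* stayed under 1 FPKM in every sample. With *Ovgp1*, the other secretory marker, the sum was 109 to 144 FPKM with DMSO, 122 to 151 with E2 and 107 to 143 with 4OHT. Nearly all of it was *Pax8*. The log2 fold change of E2 over DMSO was -0.29 for *Ovgp1* (limma adjusted p = 0.0688 paired and 0.408 unpaired) and 0.17 for *Pax8*. The 5 epithelial markers summed to 1151 to 1282 FPKM with DMSO, 2003 to 2197 with E2 and 1198 to 1380 with 4OHT. Of the 4 ciliated markers with a row, 2 were under 1 FPKM throughout, and their sum was 14.99 to 17.7 with DMSO, 10.2 to 14.3 with E2 and 15.5 to 17.2 with 4OHT. In the stromal list 4 of 5, in the muscle list 3 of 4, in the immune list 2 of 3 and in the endothelial list 2 of 2 genes stayed under 1 FPKM. With DMSO the stromal list summed to 1.92 to 6.85, the muscle list to 14.8 to 37.3 and the immune list to 3.97 to 4.01 FPKM. The muscle gene *Cnn1* was lower with E2 than with DMSO (log2 fold change -0.43, limma adjusted p = 0.0212 paired and 0.754 unpaired). The part of the moving epithelial, ciliated and muscle markers in the results below was not tested. *Pgr*, a classical estrogen target, was at 9.58, 1.36 and 1.16 FPKM with DMSO and at 38.2, 21.1 and 15.9 FPKM with E2 in replicates 1, 2 and 3.

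Several chaperones were among the most abundant mRNAs of these cells. Averaged over the 9 samples, calreticulin (*Calr*) stood at 312 FPKM, GRP94 (*Hsp90b1*) at 273, BiP (*Hspa5*) at 254 and the isomerase *Pdia3* at 200 FPKM, each above the 98th percentile of gene rows. The translocon subunit *Sec61b* was at 210 FPKM and *Atf4* at 197 FPKM. Other members of the chaperone group were less abundant, with *Dnajb9* at 16.7, *Dnajc3* at 11.1 and *Sdf2l1* at 6.52 FPKM. The sensors were also far below the abundant chaperones, with *Eif2ak3* at 18.6, *Atf6* at 9.31 and *Ern1* at 9.14 FPKM. *Derl3*, a dislocation factor of professional secretory cells, and *Creb3l1* stayed under 1 FPKM in all 9 samples and were not tested, which left 39 genes.

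**Figure D1:**
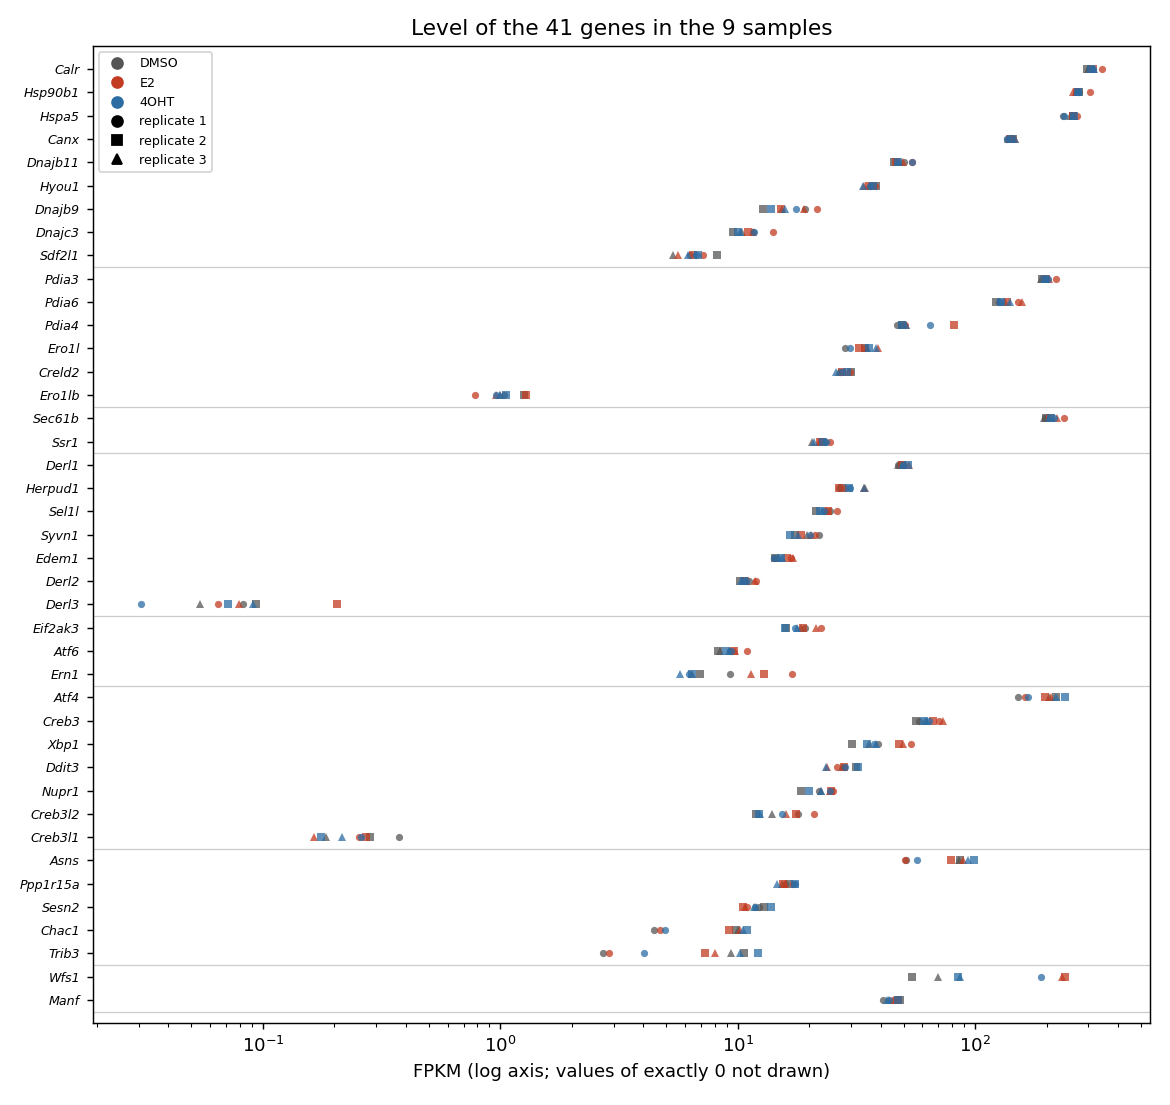
FPKM (log axis) of each of the 41 genes in the 9 samples, grouped by role from chaperones at the top to other ER proteins at the bottom. Color gives the condition and symbol the replicate number, and exact zeros are not drawn. Most rows are tight at this scale, *Ern1*, *Xbp1* and *Wfs1* are spread by condition, and *Trib3*, *Chac1* and *Asns* are spread by replicate number.

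The first question was whether E2 changed these genes relative to solvent. In the fit that took account of the replicate number, all 3 sensors and 4 of 6 tested factors were higher with E2, as was *Wfs1*, while the abundant chaperones differed by little. The shares were 100% of the 3 sensors and 66.7% of the 6 factors, against 12% of all genes. Of 17 other tested sensors and factors of the pathway, described further below, 1 was higher, or 5.88%. *Ern1* was 1.78 to 1.87 times and *Xbp1* 1.38 to 1.57 times its DMSO level within a replicate number. The samples also differed by that number, and the calls depended on whether it was in the fit. A limma fit without the replicate number (unpaired) called 0 of the 39 genes at an adjusted p under 0.05, although 11 had an unadjusted p under 0.05. Among all genes it called 0.583%. With the replicate number in the fit (paired), 13 genes were higher, or 33.3% of those tested, against 12% of all genes, and 1 was lower against 6.43% of all genes. The median log2 fold change was 0.09 over the 39 genes and 0.00 over all genes, and 31 of the 39 were positive. Within replicate numbers 1, 2 and 3 the median log2 ratio of the members was 0.13, 0.02 and 0.08. In 14 genes the E2 samples lay wholly above the DMSO samples, where 9.54% of all genes did so, and in 1 gene wholly below, where 6.2% did. For *Wfs1*, 1 of these 14, only 2 samples per group entered, because its exact zeros were left out, as they were from the corresponding counts for the other comparisons. In bulk RNA, a change in the share of cells and a change in mRNA per cell cannot be told apart.

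The IRE1α gene *Ern1* (chromosome 11, 106394650 to 106487852, minus strand, GRCm38) gave the largest sensor response. Its level was 9.27, 6.91 and 6.40 FPKM with DMSO and 17.0, 13.0 and 11.4 FPKM with E2 in replicates 1, 2 and 3. The groups did not overlap, and E2 exceeded the DMSO sample of the same number 1.83-, 1.87- and 1.78-fold. Means were 7.53 ± 1.53 and 13.8 ± 2.91 FPKM (SD, n = 3). The log2 fold change on log2(FPKM + 1) was 0.79 (SE 0.085 paired, 95% interval 0.59 to 0.99), with a limma adjusted p of 0.000816 paired and 0.0831 unpaired. The unpaired fit of all samples thus did not pass. Without DMSO replicate 1, the unpaired log2 fold change was 0.93.

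The other sensors moved less but as evenly. *Eif2ak3* (chromosome 6, 70844515 to 70905245, plus strand) was at 19.2, 16.0 and 18.5 FPKM with DMSO and at 22.3, 18.8 and 21.4 FPKM with E2. These ranges overlapped, because replicate 2 was lowest in each group, yet within each number E2 was 1.15- to 1.18-fold higher (log2 fold change 0.21, limma adjusted p = 0.00737 paired and 0.442 unpaired). *Atf6* (chromosome 1, 170704674 to 170867771, minus strand) went from 9.26, 8.23 and 8.41 FPKM to 10.98, 9.68 and 9.79 FPKM with no overlap (log2 fold change 0.21, adjusted p = 0.00953 paired and 0.29 unpaired). The paired call for *Atf6* was lost without DMSO replicate 2 or DMSO replicate 3.

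*Xbp1* (chromosome 11, 5520659 to 5525893, plus strand), whose mRNA is the substrate of IRE1α, was the factor with the largest change. It measured 39.1, 30.3 and 35.9 FPKM with DMSO and 53.8, 47.6 and 49.8 FPKM with E2. All E2 samples lay above all DMSO samples, at ratios of 1.38, 1.57 and 1.39 within a replicate number. The log2 fold change was 0.52 (SE 0.0523 paired, 95% interval 0.40 to 0.64), with a limma adjusted p of 0.000613 paired and 0.0604 unpaired. The unpaired fit of all samples did not pass here either. Gene-level FPKM do not separate the spliced from the unspliced form.

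3 more factors rose in the paired fit. *Creb3* (chromosome 4, 43562332 to 43567060, plus strand), a membrane-anchored factor related to ATF6 in its mode of release, was at 58.1, 56.6 and 61.3 FPKM with DMSO and at 70.3, 66.6 and 73.1 FPKM with E2 (log2 fold change 0.25, adjusted p = 0.00233 paired and 0.111 unpaired). The gene overlaps *Tln1* and *Gba2* on the other strand, and the use of strand in counting is not given in the sources used here. *Creb3l2*, of the same family, was at 17.9, 11.97 and 13.9 FPKM with DMSO and at 20.9, 17.5 and 16.0 FPKM with E2, with overlapping groups (log2 fold change 0.31, adjusted p = 0.0149 paired and 0.522 unpaired). *Nupr1*, a small stress-induced chromatin protein, was at 22.1, 18.5 and 22.4 FPKM with DMSO and at 25.2, 24.7 and 24.6 FPKM with E2, without overlap (log2 fold change 0.24, adjusted p = 0.0261 paired and 0.382 unpaired). Its paired call was lost without DMSO replicate 1, DMSO replicate 2 or E2 replicate 2.

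*Atf4* and *Ddit3*, the factors downstream of PERK, did not pass. *Atf4* had a log2 fold change of -0.01 (95% interval -0.14 to 0.11 paired). *Ddit3*, which encodes the pro-apoptotic factor CHOP, was at 28.0, 31.6 and 27.4 FPKM with DMSO and at 26.2, 28.1 and 23.8 FPKM with E2, lower within each number (log2 fold change -0.15, adjusted p = 0.0779 paired). It overlaps *Mars* on the other strand.

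**Figure D2:**
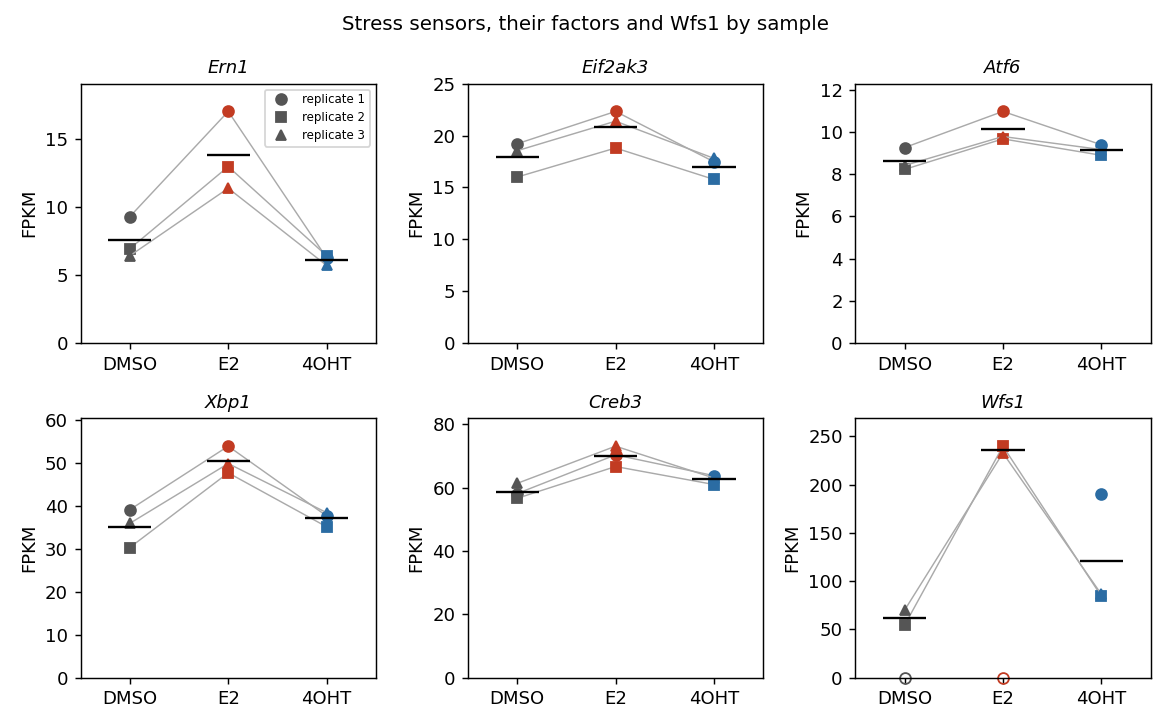
FPKM of 5 sensor and factor genes and *Wfs1* by condition, with gray lines joining samples of the same replicate number and black bars at the group means. Open symbols in the *Wfs1* panel are exact zeros, which the means leave out. In the 5 other panels every line rises from DMSO to E2 and falls from E2 to 4OHT.

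*Wfs1*, a membrane glycoprotein of the ER linked to calcium balance and to Wolfram syndrome, had the largest fold change of the set and also its least complete data. It was listed at 0, 54.2 and 69.8 FPKM with DMSO, at 0, 240 and 233 FPKM with E2, and at 190, 84.5 and 86.5 FPKM with 4OHT. Both zeros stand in replicate 1, beside a 4OHT value above the other 4OHT samples. The fits left out these zeros, so the E2 comparison with DMSO rests on replicates 2 and 3. There E2 exceeded DMSO 4.42- and 3.33-fold (log2 fold change 1.92, SE 0.097 paired, limma adjusted p = 0.000175 paired and 0.132 unpaired). The unpaired fit of all samples thus did not pass for *Wfs1*. The gene lies on chromosome 5, 36966104 to 36989205, minus strand, and overlaps no other annotated gene.

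The abundant chaperones changed little, whereas the abundant isomerase *Pdia6* (mean 136 FPKM) rose, as given below. Of the 9 chaperones and cochaperones, 2 rose in the paired fit, or 22.2%, against 12% of all genes. Both encode J-domain cochaperones of BiP, as does *Dnajb11*, which did not pass (log2 fold change 0.06, limma adjusted p = 0.291 paired). *Dnajb9* was at 19.2, 12.8 and 15.4 FPKM with DMSO and at 21.5, 15.3 and 19.1 FPKM with E2 (log2 fold change 0.23, adjusted p = 0.0149 paired and 0.646 unpaired). *Dnajc3*, an inhibitor of PERK, was at 11.6, 9.59 and 10.5 FPKM with DMSO and at 14.1, 11.01 and 11.6 FPKM with E2 (log2 fold change 0.19, adjusted p = 0.0159 paired and 0.553 unpaired). In both genes the groups overlapped and each E2 sample exceeded the DMSO sample of its number. The paired call of *Dnajb9* was lost without DMSO replicate 2, DMSO replicate 3 or E2 replicate 3, and that of *Dnajc3* without DMSO replicate 1, E2 replicate 1 or DMSO replicate 2.

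BiP itself was at 234, 257 and 252 FPKM with DMSO and at 268, 259 and 262 FPKM with E2. The groups did not overlap, but the differences within a number ran from 1.01- to 1.15-fold, and the log2 fold change of 0.09 had a paired 95% interval of -0.02 to 0.19 (adjusted p = 0.225). *Hsp90b1* had a log2 fold change of 0.03 (interval -0.09 to 0.14), *Canx*, the membrane lectin chaperone, 0.05 (interval -0.04 to 0.14), and *Hyou1*, an exchange factor for BiP, -0.03 (interval -0.12 to 0.07). *Calr*, the soluble lectin chaperone, reached 0.12 with groups that did not overlap (interval 0.03 to 0.20, adjusted p = 0.0728). These intervals leave out log2 changes of the size seen for *Xbp1* and *Ern1*. They do not clearly set BiP and *Calr* apart from the sensors *Eif2ak3* and *Atf6*, at 0.21 each. That value lay just above the paired intervals of BiP and *Calr*. It lay inside their unpaired intervals, -0.052 to 0.222 and -0.004 to 0.233. The remaining chaperone partners *Dnajb11* and *Sdf2l1* had log2 fold changes of 0.06 and -0.03, and neither passed.

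Among the 6 genes of disulfide formation, *Pdia6* rose in the paired fit, a share of 16.7% against 12% of all genes. It was at 125.6, 123.0 and 133.7 FPKM with DMSO and at 152.0, 135.8 and 157.5 FPKM with E2, without overlap (log2 fold change 0.22, SE 0.0395, adjusted p = 0.0085 paired and 0.309 unpaired). That call was lost without DMSO replicate 3. *Pdia6* overlaps *Atp6v1c2* on the other strand, with the same limit on strand as for *Creb3*. *Pdia4*, another isomerase, had a larger log2 fold change of 0.29 that did not pass (adjusted p = 0.251 paired). Its values were 47.0, 49.4 and 49.2 FPKM with DMSO, 50.9, 81.2 and 51.2 FPKM with E2 and 64.3, 49.2 and 51.0 FPKM with 4OHT, so that 2 samples, E2 replicate 2 and 4OHT replicate 1, stood apart from the rest. *Pdia3*, the partner of the lectin chaperones, reached 0.10 with groups that did not overlap (adjusted p = 0.063 paired). The oxidases *Ero1l* and *Ero1lb*, which regenerate the isomerases, had 0.10 and -0.07, and *Creld2* had 0.03, none of which passed.

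In protein entry and export, *Sec61b* rose from 196, 200 and 195 FPKM to 236, 207 and 222 FPKM (log2 fold change 0.17, adjusted p = 0.0358 paired and 0.337 unpaired). The paired call held in 2 of the 9 fits that left out 1 sample, those without E2 replicate 2 and without 4OHT replicate 2. *Ssr1*, a subunit of the translocon-associated complex, had 0.05 and *Manf*, a secreted ER stress protein, 0.06, and neither passed. Of the 6 tested degradation genes, 1 rose, or 16.7%, against 12% of all genes. This was *Edem1*, a lectin that draws misfolded glycoproteins out of the folding cycle. It was at 14.2, 14.4 and 14.9 FPKM with DMSO and at 16.7, 16.2 and 17.1 FPKM with E2, without overlap (log2 fold change 0.19, adjusted p = 0.0137 paired and 0.227 unpaired), and its call was lost without DMSO replicate 2 or DMSO replicate 3. The retrotranslocation genes *Derl1*, *Derl2* and *Sel1l* had log2 fold changes of 0.08, 0.09 and 0.09, and the ubiquitin ligase *Syvn1* and its partner *Herpud1* of 0.03 and 0.01, none of which passed.

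**Figure D3:**
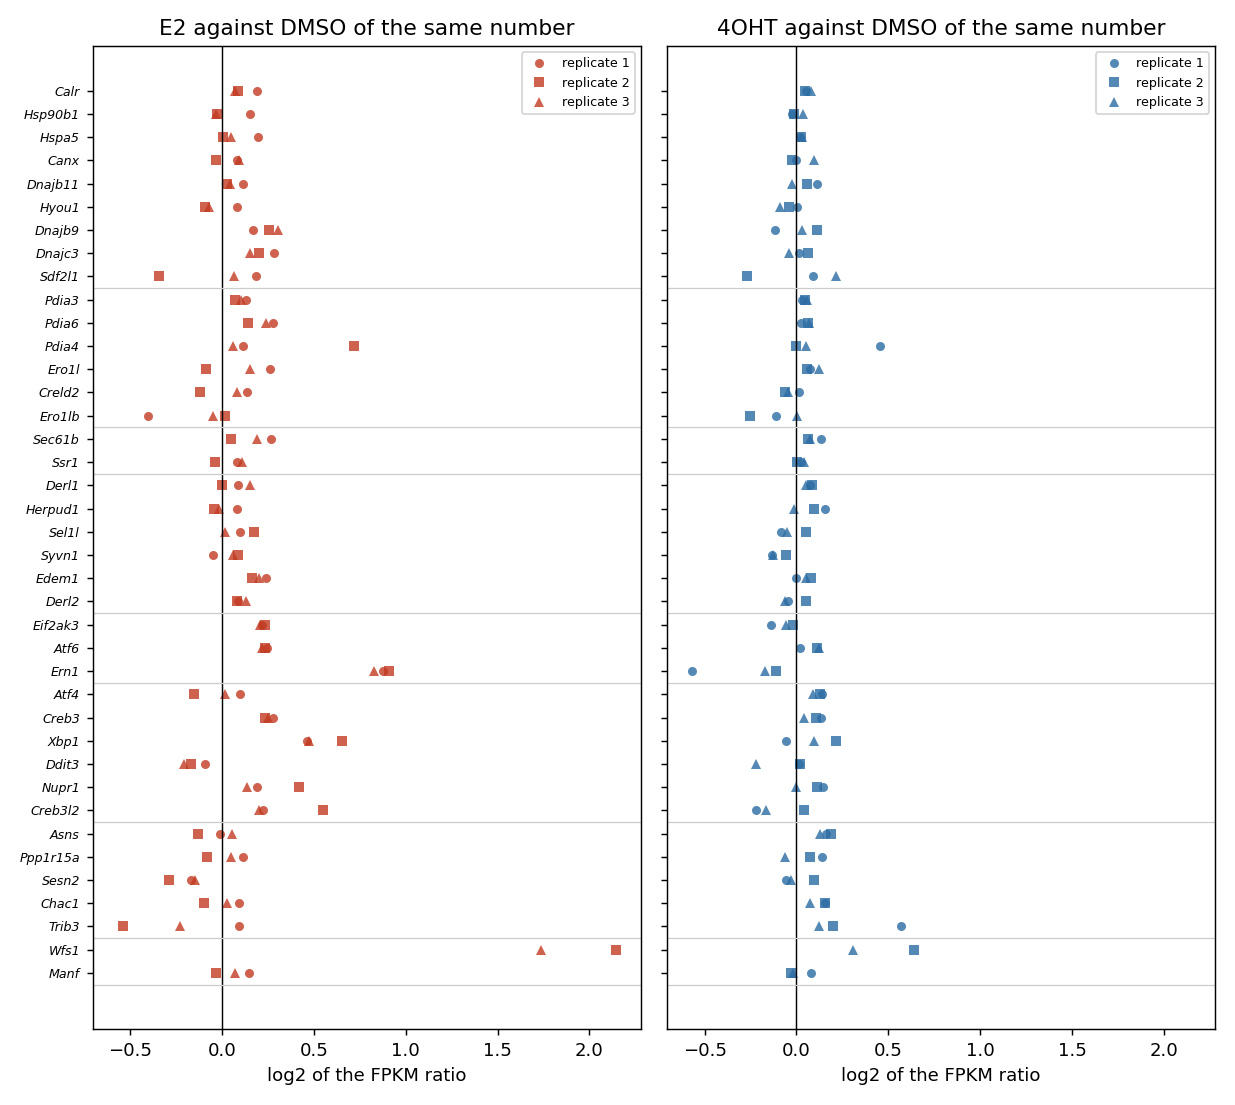
Log2 ratio of FPKM within each replicate number for the 39 tested genes, E2 over DMSO on the left and 4OHT over DMSO on the right, with 1 symbol per replicate number. With E2, all symbols lie right of 0 for 21 of the 39 genes, among them *Ern1*, *Eif2ak3*, *Atf6*, *Xbp1* and *Creb3*. With 4OHT, all symbols lie left of 0 for 3 genes, *Ern1*, *Eif2ak3* and *Syvn1*. *Wfs1* has no symbol for replicate 1.

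Of the 5 feedback and amino acid response genes, 0 rose and 1 fell, or 20%, where 12% of all genes rose and 6.43% fell. *Sesn2*, a stress-induced regulator of growth signaling, was at 12.3, 12.9 and 11.9 FPKM with DMSO and at 10.9, 10.6 and 10.7 FPKM with E2, the 1 member whose E2 samples lay wholly below DMSO (log2 fold change -0.19, adjusted p = 0.0453 paired and 0.362 unpaired). Its paired call held in 1 of the 9 fits that left out 1 sample, the one without 4OHT replicate 2. The pseudokinase *Trib3* had a log2 fold change of -0.21 (adjusted p = 0.171 paired). *Asns* (asparagine synthetase), *Chac1* (a glutathione-degrading enzyme) and *Ppp1r15a* (the phosphatase subunit that restores translation) had -0.03, 0.00 and 0.03.

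The comparison of E2 with 4OHT asked whether the receptor ligands themselves differed. *Ern1* was higher with E2 than with 4OHT even in the unpaired fit, and it was the 1 member called there, where 0.327% of all genes were called. With 4OHT it was at 6.25, 6.40 and 5.69 FPKM, all below the E2 samples, and E2 was 2.72-, 2.02- and 2.00-fold higher within a number. The log2 fold change was 1.04 (95% interval 0.84 to 1.23 paired), with a limma adjusted p of 0.044 unpaired and 0.000342 paired. The unpaired call was narrow, with an adjusted p of 0.0295 to 0.192 when 1 sample was left out, and in those fits it held only without DMSO replicate 1. In the paired fit 12 members were higher with E2, 30.8% of those tested, against 10.6% of all genes, and 3 were lower, or 7.69%, against 10.8% of all genes. The E2 samples lay wholly above the 4OHT samples in 10 members (8.71% of all genes) and wholly below in 1 (10.1% of all genes).

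All 3 sensors had E2 samples wholly above 4OHT, where 8.71% of all genes did. *Eif2ak3* was at 17.5, 15.8 and 17.8 FPKM with 4OHT (log2 fold change of E2 over 4OHT 0.28, adjusted p = 0.0026 paired and 0.335 unpaired). *Atf6* was at 9.40, 8.90 and 9.17 FPKM (0.13, adjusted p = 0.0476 paired), and this call held in 0 of the 9 fits that left out 1 sample. *Xbp1* was at 37.6, 35.1 and 38.4 FPKM (0.43, adjusted p = 0.00177 paired and 0.155 unpaired) and *Creb3l2* at 15.3, 12.3 and 12.4 FPKM (0.42, adjusted p = 0.00496 paired and 0.371 unpaired).

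*Creb3* was at 63.8, 61.0 and 63.0 FPKM with 4OHT, between DMSO and E2 (0.16, adjusted p = 0.0166 paired), and its call was lost without any of the 4OHT samples and without E2 replicate 3. *Wfs1* gave 1.46 in the paired fit, from replicates 2 and 3, where E2 was 2.84- and 2.69-fold higher (adjusted p = 0.000643 paired), and 1.07 in the unpaired fit, which also used 4OHT replicate 1 (adjusted p = 0.363). With its zeros kept as values the direction turned.

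*Dnajb9* (0.22, adjusted p = 0.0171), *Dnajc3* (0.18, adjusted p = 0.0204), *Pdia6* (0.17, adjusted p = 0.0245), *Edem1* (0.15, adjusted p = 0.0334) and *Syvn1* (0.13, adjusted p = 0.0483) completed the higher members in the paired fit. They held in 6, 6, 3, 2 and 1 of the 9 fits that left out 1 sample, and *Edem1* alone among them had groups that did not overlap. *Syvn1* overlaps *Mrpl49* on the other strand.

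The 3 lower members all belonged to the feedback and amino acid response group, 60% of its 5 genes, against 10.8% of all genes. *Trib3* was at 2.88, 7.29 and 8.02 FPKM with E2 and at 4.01, 12.2 and 10.2 FPKM with 4OHT, lower with E2 within each number (log2 fold change -0.45, SE 0.0963, adjusted p = 0.0168 paired and 0.729 unpaired). *Asns* was at 50.6, 78.8 and 88.7 FPKM with E2 and at 57.1, 98.6 and 93.3 FPKM with 4OHT (-0.19, adjusted p = 0.0298 paired and 0.8 unpaired). *Sesn2* was at 11.8, 13.8 and 11.7 FPKM with 4OHT, wholly above E2 (-0.19, adjusted p = 0.0393 paired and 0.37 unpaired). The calls held in 7, 4 and 2 of the 9 fits that left out 1 sample, and *Trib3* lost its call without 4OHT replicate 1 or 4OHT replicate 2.

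4OHT against DMSO called 0 members in either fit. Among all genes limma called 0% unpaired, where 300 genes had an unadjusted p under 0.05 and the smallest adjusted p was 0.306, and 0.0795% paired. Of the members, 1 had an unadjusted p under 0.05 unpaired and 7 paired, and the smallest adjusted p was 1 unpaired and 0.225 paired. The median log2 fold change was 0.04 over the members and 0.03 over all genes. In 3 members (*Calr*, *Sec61b*, *Wfs1*) the 4OHT samples lay wholly above DMSO, where 4.61% of all genes did, and in 0 wholly below, where 3.78% did. *Ern1* had the lowest value, a log2 fold change of -0.25 (95% interval -0.44 to -0.05 paired, adjusted p = 0.318), followed by *Creb3l2* at -0.11 and *Syvn1* at -0.10. The highest were *Wfs1* at 0.85 unpaired and 0.47 paired (adjusted p = 0.225), *Trib3* at 0.24 (adjusted p = 0.342) and *Pdia4* at 0.16 (adjusted p = 0.631). The E2 and 4OHT comparisons with DMSO share the same 3 solvent samples.

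Replicate number went with about as large a share of the members as of all genes. Tested over the 3 conditions, it passed for 19 of the 39 members, or 48.7%, against 49.4% of all genes. In 4 members the samples numbered 1 lay wholly below the others, where 10.3% of all genes did so, and in 2 wholly above, where 10.9% did, so neither count stands out from the background. The 4 lower members are described because their gaps were wide. *Trib3* was at 2.70, 2.88 and 4.01 FPKM in the samples numbered 1 and between 7.29 and 12.2 FPKM in the others, a mean ratio of 0.333 (limma adjusted p = 6.56e-05). *Chac1* was at 4.43, 4.72 and 4.94 FPKM against 9.17 to 10.9 FPKM (ratio 0.464, adjusted p = 1.98e-05). *Asns* was at 51.0, 50.6 and 57.1 FPKM against 78.8 to 98.6 FPKM (ratio 0.597, adjusted p = 4.35e-05), and *Atf4* at 152, 162 and 168 FPKM against 197 to 239 FPKM (ratio 0.749, adjusted p = 0.000792). *Ddit3*, *Sesn2*, *Ppp1r15a* and *Nupr1*, which also answer to ATF4, overlapped, with ratios of 0.99, 0.98, 1.06 and 1.08. The chaperone partner *Dnajb11* and the translocon gene *Ssr1* were the 2 higher members, at ratios of 1.11 and 1.09.

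**Figure D4:**
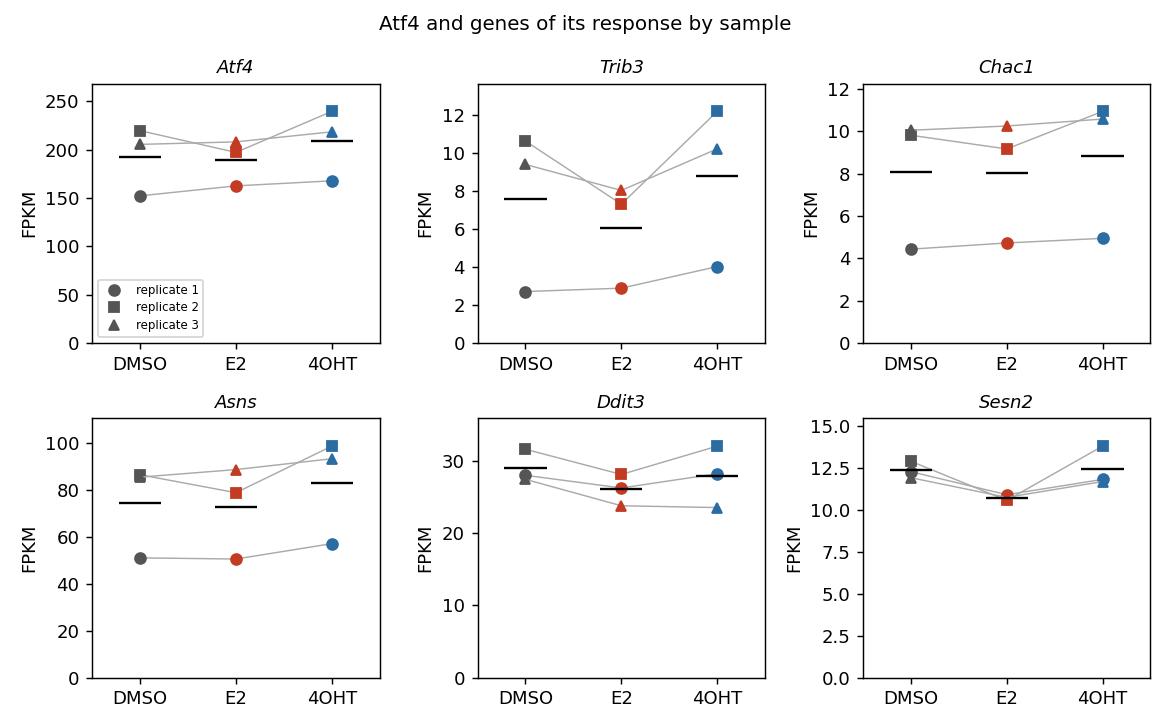
FPKM of *Atf4* and 5 genes of its response by condition, with gray lines joining samples of the same replicate number and black bars at the group means. The circles of replicate 1 lie below all others for *Atf4*, *Trib3*, *Chac1* and *Asns*, whereas *Ddit3* and *Sesn2* show no such gap.

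Further genes of the pathway were taken from a list of 143, of which 127 could be tested. For E2 against DMSO, 1 was called in the unpaired fit, *Atf3*, a stress-induced factor downstream of ATF4. It was at 8.30, 8.64 and 7.98 FPKM with DMSO, at 12.2, 12.2 and 11.7 FPKM with E2 and at 9.03, 8.55 and 8.34 FPKM with 4OHT, the E2 samples standing wholly above the others (log2 fold change over DMSO 0.48, adjusted p = 0.0089 unpaired and 0.00022 paired). It was also the 1 gene of the list called unpaired for E2 against 4OHT (0.43, adjusted p = 0.0255). For E2 against DMSO the paired fit called 21 of the 127 higher, or 16.5% against 12% of all genes, and 4 lower, or 3.15% against 6.43%. For E2 against 4OHT it called 12 higher, or 9.45% against 10.6% of all genes, and 10 lower, or 7.87% against 10.8%, both below the background. Of these 10, 7 were in the further amino acid response list, 36.8% of its 19 tested genes, against 10.8% of all genes. The paired fit called 0 for 4OHT against DMSO.

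By role, the paired fit for E2 against DMSO called 6 of 21 further degradation genes, 4 of 28 folding enzymes, 3 of 15 translocation genes, 3 of 16 glycoprotein quality control genes, 3 of 11 calcium genes and 1 of 17 sensors and factors higher, and 0 of them lower. The shares were 28.6%, 14.3%, 20%, 18.8%, 27.3% and 5.88% against 12% of all genes. The genes called included the degradation lectins *Os9* (0.17) and *Erlec1* (0.23), the prolyl isomerase *Fkbp14* (0.41) and sulfhydryl oxidase *Qsox1* (0.26), *Serp1*, *Tmx1*, the translocation genes *Tram1*, *Sec63* and *Ssr3*, the oligosaccharyltransferase genes *Stt3b*, *Ostc* and *Magt1*, and the calcium genes *Itpr1* (0.28), *Calu* and *Nucb1*. In the further amino acid response list, 1 of 19 was higher, the lipoprotein receptor *Vldlr* (0.63), and 4 were lower, shares of 5.26% and 21.1% against 12% and 6.43% of all genes. These genes were named after their values were seen. The lower genes were *Psat1* (-0.43, adjusted p = 0.00772), *Phgdh* (-0.27, adjusted p = 0.00817) and *Shmt2* (-0.32, adjusted p = 0.0226), of serine and glycine synthesis, and *Ddit4* (-0.26, adjusted p = 0.0151), a growth inhibitor induced by stress. Replicate number passed for 15 of these 19 genes, or 78.9%, against 49.4% of all genes.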

How the data were processed

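RNAseq was done on 9 samples of FVB MOE cells, 3 each with DMSO, E2 and 4OHT, grouped by their labels. The authors selected mRNA with oligo-dT, made strand-directional single-end libraries, aligned reads to mm10 with TopHat2 2.0.8b, and computed the deposited FPKM per gene with Cufflinks and Cuffdiff 2.1.1 from a UCSC annotation. FPKM are relative to each library's mapped reads. Whether a further scaling was applied is not given in the sources used here, and no counts or depths were used.

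An exact 0 in a gene whose other values had a median FPKM of at least 5 was taken as missing (266 rows, 80 to 109 zeros per sample). Tests used limma 3.58.1 (R 4.3.3) on log2(FPKM + 1) for genes that reached an FPKM of 1 in 3 or more samples, which understates changes of low genes, with a variance trend, all 9 samples in 1 fit, and Benjamini-Hochberg adjustment over all genes tested at 0.05. Each contrast was fitted as a coefficient of its own, so that its SE is exact where values are missing. The unpaired fit was fixed as the main one. The labels give each group the replicate numbers 1 to 3, and deviations from the condition means of same-numbered samples correlated at 0.454 to 0.801 over 11122 genes in every pair, so the numbers were taken to pair the samples and the fit with the replicate block is given beside the main one. An F test of replicate number used the same model.

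The alternatives were other pseudocounts, filters, scalings, zeros kept as values, the 6 compared samples alone, a threshold of 0.01 and each sample left out. The procedure was tested on simulated data. Genes named are all members called in either fit, the 3 with the largest and the 3 with the lowest log2 fold change per contrast, members with some exact zeros, and further pathway genes called without the block, with others named after their values were seen. The promoters printed in full are 3 of the members called in the paired fit and *Hspa5*, added as a textbook target. The members and lists were chosen with earlier results of these data known. Positions came from GENCODE M21 (GRCm38, the assembly of mm10), promoters from RefSeq.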

Additional observations from a re-analysis of the deposited data

How the results depend on the processing

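The number of members called depended above all on the replicate block. For E2 against DMSO, 0 members were called without it and 14 with it. The block gave 11 with exact zeros kept as values, 8 without the samples numbered 1, 14 with a pseudocount of 0.1, and 14 with upper-quartile scaling (12 higher and 2 lower). The 6 compared samples alone gave 1, *Wfs1*. Leaving out 1 sample gave 0 to 2 without the block and 7 to 14 with it, the lowest being 7 without DMSO replicate 2 and 8 without DMSO replicate 3. For E2 against 4OHT, 1 was called without the block and 15 with it, and the block gave 11 with zeros kept, 6 without the samples numbered 1, 16 with upper-quartile scaling and 15 with a pseudocount of 0.1. Without the block it was 0 with zeros kept, with no filter on low values, in the 6 compared samples alone or at an adjusted p under 0.01. Leaving out 1 sample gave 0 to 1 without the block and 5 to 13 with it, for example 5 without 4OHT replicate 1 and 10 without E2 replicate 1. For 4OHT against DMSO every setting run called 0 members. Replicate number was called for 19 members, 12 at an adjusted p under 0.01, and 13 to 24 with 1 sample left out.

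Over all genes, E2 against DMSO called 66 genes without the block and 2088 with it, 14 in the 6 samples alone, 14 at 0.01, 40 with no filter and 39 with equal FPKM totals. E2 against 4OHT called 37 and 2426, with 15 in the 6 samples alone, 18 with zeros kept, 17 with no filter and 3 at 0.01. 4OHT against DMSO called 0 and 9. With 1 sample left out, these were 13 to 87 genes without the block and 926 to 1854 with it for E2 against DMSO, 0 to 56 and 662 to 2359 for E2 against 4OHT, and, with the block, 0 to 27 for 4OHT against DMSO. Without the samples numbered 1 the block called 1325 for E2 against DMSO and 944 for E2 against 4OHT.

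The direction reversed for *Wfs1*, E2 against 4OHT, whose log2 fold change was -1.56 with zeros kept in either fit, because the E2 zero then entered as a value, and for *Asns* in the same comparison, which ranged from -0.43 to 0.05 over the unpaired fits that left out 1 sample and was positive without E2 replicate 1, where the cause was not tested. The fits that left out a sample with the block, those without the samples numbered 1, and the block with other scaling or pseudocount were added after seeing the data. FPKM carry no counts, so counting error is not known, and 3 samples per group limit the precision.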
